A study of Mus musculus with 23 samples.

Results

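The genes described here make fatty acids from cytosolic acetyl-CoA and supply the NADPH that this synthesis uses. The 10 listed symbols are Fasn, Acly, Acaca, Scd1, Elovl6, Srebf1, Thrsp, Me1, Tkt and G6pdx. Every probe set of the array whose gene symbol in the platform table is exactly one of them was taken, which gave 18 probe sets of 9 genes among 22626 probe sets that are not controls. No probe set carried the symbol G6pdx alone, so G6pdx expression is not analysed here. Of the 18 probe sets, 15 passed the filter on low values, and these cover all 9 genes. The other 3 were above the filter level on no array: 1439445_x_at and 1438389_x_at of Acly, and 1417403_at of Elovl6.

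Muscle RNA of female C57BL/6J mice aged 77 days was measured on 23 Affymetrix arrays, 1 per sample, in 2 experiments. In the flight experiment, gastrocnemius came from 4 spaceflight samples and 4 samples of mice kept on the ground in animal enclosure modules (AEM), the cage hardware of the flight, each for 11 days and 19 hours. In the calf experiment, calf muscle came from 5 untreated controls in normal housing, 5 samples after 12 days of hindlimb suspension and 5 samples after the same suspension followed by 3.5 hours of reloading, which is renewed weight bearing. Suspension lifts the hindlimbs off the floor by the tail, with the body tilted by about 30 degrees, and models unloading only in those limbs. Groups follow the titles of the samples. In the flight experiment each group's free-text description fits the other group's title, and were the titles wrong, all flight differences given here would change sign. Nothing in the labels says that replicates are separate animals, so a p-value reflects only how far these samples spread, which may be technical. The tissue and its handling differed between the experiments, so a level in gastrocnemius was not tested against a level in calf muscle.

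De novo lipogenesis starts when ATP citrate lyase, encoded by Acly, splits exported citrate into acetyl-CoA. Acetyl-CoA carboxylase (Acaca) turns this into malonyl-CoA, fatty acid synthase (Fasn) builds palmitate from both, Elovl6 lengthens it and the desaturase Scd1 makes it monounsaturated. Each elongation cycle of Fasn consumes NADPH, which comes from malic enzyme (Me1) and from the pentose phosphate pathway, whose oxidative arm starts with G6pdx and whose non-oxidative arm contains transketolase (Tkt). Srebf1 encodes the transcription factor SREBP-1, which activates most of these genes after feeding, and Thrsp, the Spot 14 protein, is induced with them. The pathway is best known in liver and fat; in muscle samples it can come from the fibres or from fat cells between them, and bulk RNA cannot tell fewer cells of a type from less RNA per cell.

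The RefSeq promoters of Fasn, Thrsp, Tkt and Acly are shown because these are the genes with the largest differences in flight. Each run is the 250 bases before the annotated start on GRCm38.p6, 5′ to 3′ on the gene's strand. Capitals mark matches on either strand to CCAAT, the site of the NF-Y factor, to the GC box GGGCGG, a site of the Sp1 family, or to the sterol regulatory element core TCACNCCA, a site of SREBP. ATTGG and CCGCCC are the reversed forms of the first 2.
Fasn, chr11:120824548-120824797, strand -: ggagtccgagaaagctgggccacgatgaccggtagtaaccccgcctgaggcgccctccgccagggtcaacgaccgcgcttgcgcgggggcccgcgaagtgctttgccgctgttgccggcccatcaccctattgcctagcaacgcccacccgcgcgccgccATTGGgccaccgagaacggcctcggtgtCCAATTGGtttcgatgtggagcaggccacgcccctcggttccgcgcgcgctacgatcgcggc
Thrsp, chr7:97417551-97417800, strand -: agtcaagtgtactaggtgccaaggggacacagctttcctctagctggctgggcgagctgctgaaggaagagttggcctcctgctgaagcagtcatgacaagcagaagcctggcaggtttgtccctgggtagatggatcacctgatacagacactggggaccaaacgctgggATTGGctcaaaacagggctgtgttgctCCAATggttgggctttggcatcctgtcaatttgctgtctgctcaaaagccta
Tkt, chr14:30548881-30549130, strand +: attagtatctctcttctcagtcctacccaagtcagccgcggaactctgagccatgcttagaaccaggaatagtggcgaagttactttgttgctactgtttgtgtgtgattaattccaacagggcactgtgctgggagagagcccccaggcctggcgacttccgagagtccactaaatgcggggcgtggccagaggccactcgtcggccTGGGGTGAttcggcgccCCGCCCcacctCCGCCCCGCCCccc
Acly, chr11:100528001-100528250, strand -: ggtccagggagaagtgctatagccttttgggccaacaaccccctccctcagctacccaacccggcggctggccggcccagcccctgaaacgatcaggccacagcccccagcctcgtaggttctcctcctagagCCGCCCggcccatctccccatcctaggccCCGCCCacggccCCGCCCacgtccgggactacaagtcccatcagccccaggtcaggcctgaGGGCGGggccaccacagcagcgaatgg
Fasn has CCAAT matches at 90, 62 and 59 bases before its start, and the last 2 overlap as one palindrome. Thrsp has them at 79 and 52 bases. Acly has GC boxes at 117, 88, 76 and 27 bases. Tkt has GC boxes at 25, 14 and 9 bases, and a sterol core on the reverse strand at 42 bases. A promoter was matched by symbol for 9 of the 10 genes, 12 promoters in all, and not for Scd1. CCAAT occurred in 5 of the 12, against 33.8% of 32851 mouse promoters of the same length, GGGCGG in 6, against 32.7%, the sterol core in 1, against 3.67%, and the E-box CACGTG, a site of USF and ChREBP factors, in 0, against 6.02%. A match is a description of letters, and a window without one says nothing of the factor. Fasn, Acly, Acaca and Srebf1 lie on chromosome 11.

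Deposited values were on the log2 scale. The median signal of an array ran from 6.15 to 6.23 for gastrocnemius and from 6.28 to 6.39 for calf muscle. A probe set was tested where it exceeded log2 5.83, the 40th percentile of all values, on at least 4 arrays, which kept 14849 probe sets. Differences were fitted with limma, p-values were adjusted by Benjamini-Hochberg over all 14849, and a probe set counts as called, or as having risen or fallen, at an adjusted p under 0.05. Of the 15 tested probe sets, 13 were above the filter level on all 23 arrays. Acly 1439459_x_at was above it on 22 and the probe set of Acaca on 7, so Acaca was near background throughout. Probe sets differ in affinity, so a level is compared only between samples and never between genes.

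In spaceflight muscle, Fasn, Thrsp, Tkt, Acly and Elovl6 rose against AEM muscle. The call covered 9 of the 15 tested probe sets, each higher in spaceflight, against 3.25% of all tested probe sets called higher and 6.36% called in either direction. The median difference over the 15 was 0.64, against -0.02 over all tested probe sets. The 6 probe sets not called were those of Srebf1, Acaca, both of Scd1 and both of Me1. Differences were above 0 for 14 of the 15, against 45.8% of all probe sets, and in 10 of the 15 every spaceflight array was above every AEM array, against 6.26% of all. Members were chosen with earlier results of these data known, and several probe sets share a gene. The shares given here and for the calf comparisons are therefore no test of the set.

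Fasn read log2 9.50, 9.01, 9.16 and 8.91 in spaceflight replicates 8, 9, 10 and 11. It read 7.76, 8.24, 8.19 and 7.88 in AEM replicates 1 to 4. All spaceflight arrays were above all AEM arrays, by at least the gap between 8.91 and 8.24. The difference in log2 signal was 1.13 ± 0.14 (SE, 95% interval 0.83 to 1.43), a 2.18-fold higher signal, with a limma adjusted p of 0.000623.

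Thrsp, the Spot 14 gene, showed the largest difference of the 9 genes. Its probe set 1424737_at read 9.89, 9.59, 9.87 and 9.72 in the spaceflight arrays and 8.35, 8.81, 8.38 and 8.10 in the AEM arrays. The groups did not overlap, and the spread within spaceflight (SD 0.14, n = 4) was smaller than within AEM (SD 0.29, n = 4). The log2 difference was 1.36 ± 0.13 (SE), or 2.57-fold, with an adjusted p of 0.000167 in limma. The other Thrsp probe set, 1422973_a_at, differed by 0.90 ± 0.14 (adjusted p = 0.00237, limma).

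Tkt, the transketolase that passes sugars between the pentose phosphate pathway and glycolysis, rose on both probe sets. On 1439443_x_at the spaceflight arrays read 9.02, 9.14, 9.13 and 8.96, and the AEM arrays 8.20, 8.42, 7.92 and 7.76. On 1451015_at they read 8.52, 8.38, 8.23 and 8.23 against 7.39, 7.87, 7.48 and 7.29. Neither probe set had overlapping groups. The differences were 0.99 ± 0.13 and 0.83 ± 0.12 (log2 ± SE), or 1.98-fold and 1.78-fold, with limma adjusted p-values of 0.000724 and 0.0016.

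Acly rose on each of its 3 tested probe sets. On 1451666_at, the one of highest signal, the spaceflight arrays read 9.04, 8.87, 8.72 and 8.76 and the AEM arrays 8.01, 8.41, 8.25 and 8.17, with no overlap. The difference was 0.64 ± 0.10 (log2 ± SE; limma adjusted p = 0.0029). On 1439459_x_at it was 0.89 ± 0.16 (adjusted p = 0.00626, and 0.0537 with all 23 arrays in the fit), and on 1425326_at 0.68 ± 0.17 (adjusted p = 0.0302, limma). The call on 1425326_at was lost without any one of AEM replicates 1 and 4 and spaceflight replicates 8 and 11, with an adjusted p of up to 0.0798, and spaceflight replicate 8 was the far array of its group there, at 8.48 against 7.98 for the next.

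Elovl6, the elongase that takes palmitate to stearate, read 7.20, 6.84, 6.75 and 6.74 in spaceflight and 6.26, 6.56, 6.59 and 6.26 in AEM muscle. The groups did not overlap, but the gap between the nearest arrays was small. The difference was 0.47 ± 0.12 (log2 ± SE; adjusted p = 0.037 in limma). It missed the threshold without any one of AEM replicates 1 and 4 and spaceflight replicates 8 and 9, with an adjusted p of up to 0.102, and was 0.0745 with all 23 arrays in the fit.

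Srebf1, the regulator of the pathway, was not called. It read 9.20, 8.98, 8.80 and 8.63 in spaceflight and 8.62, 8.63, 8.33 and 8.39 in AEM arrays, so the lowest spaceflight array and the highest AEM array met at 8.63. The difference was 0.41 ± 0.12 (log2 ± SE, 95% interval 0.15 to 0.67; adjusted p = 0.066, limma). It passed the threshold when each array was centred on its median (adjusted p = 0.0496), with trend and robust estimation (0.0397), with array weights (0.0425), with all 23 arrays in the fit (0.0132) and without spaceflight replicate 11 (0.0335).

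Scd1, the desaturase, had overlapping groups on both probe sets. On 1415964_at the spaceflight arrays read 11.83, 11.30, 10.71 and 11.47 and the AEM arrays 10.74, 11.09, 11.30 and 11.00. The differences of the 2 probe sets were 0.30 ± 0.19 and -0.02 ± 0.32 (log2 ± SE), with 95% intervals of -0.12 to 0.71 and -0.72 to 0.68. These intervals include 0 and also a rise close to that of Acly, so an equal level was not shown. Me1, which makes NADPH from malate, differed by 0.10 ± 0.09 and 0.08 ± 0.08, with the 95% intervals ending at 0.29 and 0.24. Acaca differed by 0.02 ± 0.12, on a probe set near background.

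**Figure D1:**
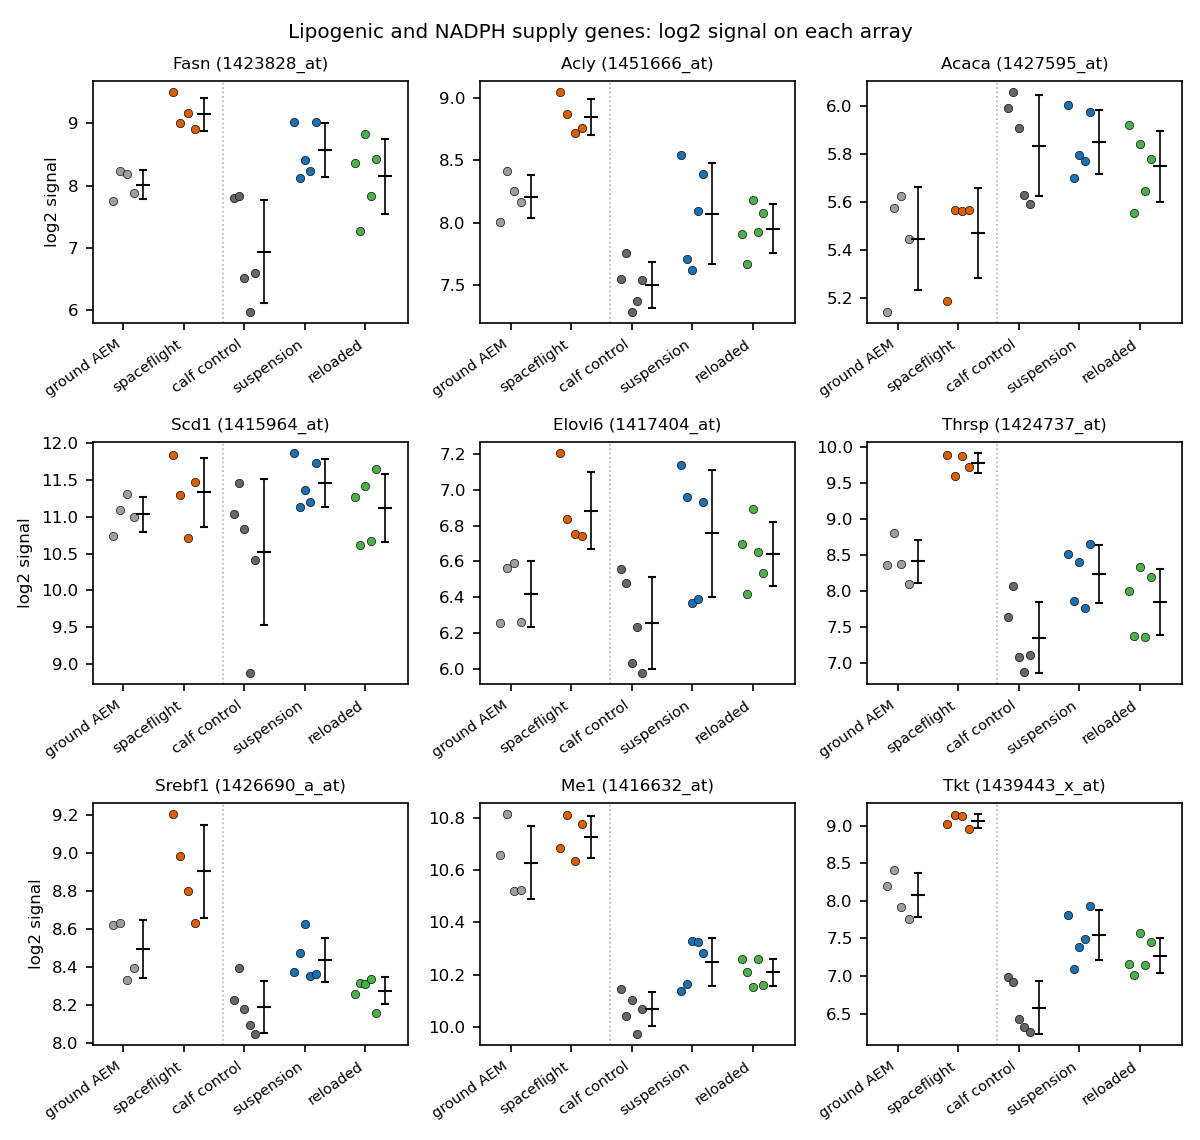
Log2 signal of the highest-mean probe set of each of 9 lipogenic and NADPH genes on 23 arrays, 1 panel per gene, with the 5 groups along the x axis, 1 point per array, and the group mean ± SD as a bar beside the points; a dotted line separates the flight from the calf experiment. For Fasn the spaceflight arrays (8.91 to 9.50) lie above the AEM arrays (7.76 to 8.24), and the suspension arrays (8.13 to 9.03) lie above the controls (5.98 to 7.84).

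After 12 days of suspension, Fasn and Tkt rose in calf muscle and no other member was called. That is 3 of the 15 tested probe sets, each higher, against 0.182% of all probe sets called higher and 0.377% called in either direction. All 15 differences were above 0, against 49.9% of all, and the median difference was 0.53, against -0.00 over all tested probe sets. At an unadjusted p under 0.05, 12 of the 15 passed, against 8.42% of all probe sets. In 3 of the 15 the suspended and control arrays did not overlap, against 0.741% of all.

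Fasn read 9.03, 8.13, 8.41, 8.24 and 9.03 in suspension replicates 8, 9, 11, 25 and 30. It read 7.80, 7.84, 6.51, 5.98 and 6.59 in control replicates 1, 2, 19, 21 and 22. The groups did not overlap, and the controls formed a pair near 7.8 and 3 arrays between 5.98 and 6.59, so their SD was 0.83 (n = 5) against 0.43 (n = 5) in suspension. The difference was 1.62 ± 0.32 (log2 ± SE, 95% interval 0.95 to 2.30), a 3.08-fold higher signal, with an adjusted p of 0.0299 in limma. The call was lost without any one of control replicates 19, 21 and 22 and suspension replicates 8 and 30; with 1 array left out the difference ranged from 1.38 to 1.85 and the adjusted p from 0.02 to 0.106. It was also lost with array weights (adjusted p = 0.0502) and with trend and robust estimation (adjusted p = 0.16).

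Tkt read 7.81, 7.09, 7.39, 7.49 and 7.94 on 1439443_x_at in the suspended arrays and 6.98, 6.92, 6.42, 6.32 and 6.25 in the controls. Every suspended array was above every control, and suspension replicate 9 was closest to the controls. The difference was 0.96 ± 0.16 (log2 ± SE), or 1.95-fold, with an adjusted p of 0.0139 in limma. Without control replicate 22 it was 0.0502. The second probe set, 1451015_at, differed by 0.65 ± 0.13 (adjusted p = 0.0299, limma), and its call was lost without any one of control replicates 19, 21 and 22 and suspension replicates 8, 25 and 30, with an adjusted p of up to 0.108, and with only the 2 groups in the fit (adjusted p = 0.0693). Without control replicate 22 none of the 3 calls remained.

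The other members differed by smaller amounts relative to their spread. Thrsp 1424737_at read 8.52, 7.85, 8.40, 7.76 and 8.65 in suspension and 7.64, 8.06, 7.08, 6.87 and 7.11 in control arrays, so control replicate 2 was above suspension replicates 9 and 25. Its difference was 0.89 ± 0.23 (log2 ± SE; limma adjusted p = 0.139). Acly 1451666_at read 8.54, 7.71, 7.62, 8.10 and 8.39 against 7.55, 7.76, 7.29, 7.37 and 7.55, with overlap, and differed by 0.57 ± 0.15 (adjusted p = 0.148). It passed the threshold without suspension replicate 11 (0.68, adjusted p = 0.0346, limma). Acly 1439459_x_at differed by 0.53 ± 0.27, by 0.33 without suspension replicate 30 and by 0.87 without suspension replicate 9, whose array was the lowest, and Acly 1425326_at by 0.44 ± 0.13. Scd1 1415964_at read 11.86, 11.12, 11.36, 11.20 and 11.72 against 11.04, 11.45, 10.83, 8.89 and 10.42, where control replicate 21 lay far below the rest. It differed by 0.93 ± 0.33 (adjusted p = 0.392), and by 0.52 without control replicate 21, and the second Scd1 probe set by 0.80 ± 0.24 (adjusted p = 0.235). Elovl6 differed by 0.50 ± 0.15 (adjusted p = 0.23) and Srebf1 by 0.25 ± 0.08 (adjusted p = 0.306). The 2 Me1 probe sets differed by 0.18 ± 0.07 and 0.12 ± 0.07, and Acaca by 0.01 ± 0.10.

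**Figure D2:**
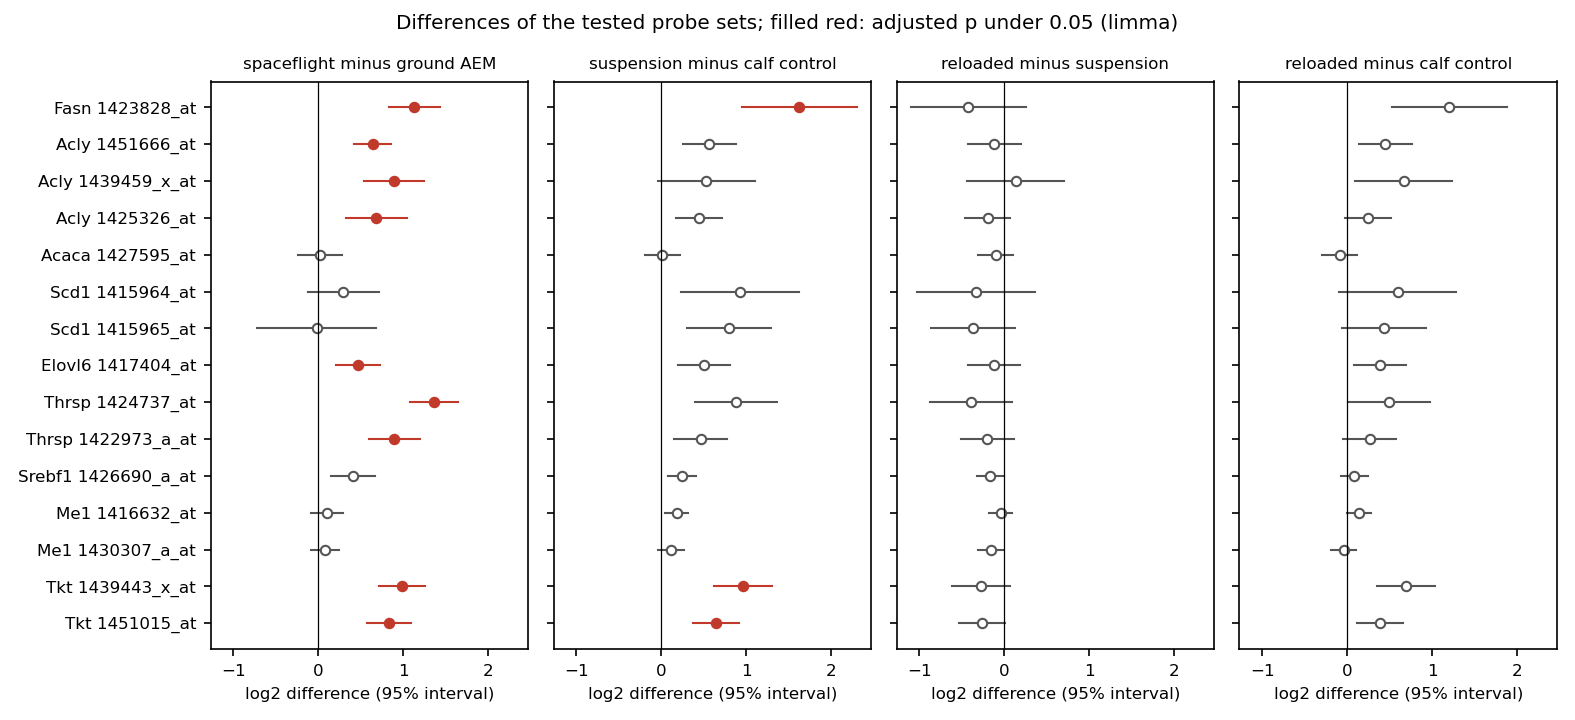
Log2 difference (x axis) with its 95% interval for the 15 tested probe sets (y axis), in 4 panels for flight, suspension, reloading and reloaded against control; filled red points passed an adjusted p under 0.05 in limma. In flight 9 points pass and in suspension 3, while 0 pass in the panels of the reloaded samples.

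After 3.5 hours of reloading, 0 of the 15 probe sets were called against suspension alone in limma, where 0.579% of all were called in either direction, and 1 of the 15 passed an unadjusted p under 0.05, against 9.34% of all. Of the 15 differences, 1 was above 0, against 45% of all, and the median was -0.20, against -0.01 over all tested probe sets. The suspended arrays are those already compared with the controls, so high readings on them raise the suspension differences and lower these. Fasn read 8.37, 7.28, 8.83, 7.83 and 8.42 in reloaded replicates 14, 15, 16, 18 and 33, so the reloaded arrays overlapped both the suspended and the control arrays. Its difference from suspension was -0.42 ± 0.32 (log2 ± SE, 95% interval -1.10 to 0.26). The intervals reached down to -0.87 for Thrsp 1424737_at and to -0.62 for Tkt 1439443_x_at, so falls of that size were not excluded by these arrays. Srebf1 was the only member whose reloaded arrays (8.26, 8.32, 8.31, 8.34 and 8.16) were all below the suspended arrays (8.37, 8.48, 8.63, 8.35 and 8.36), with a difference of -0.16 ± 0.08 and an adjusted p of 0.541. Of all probe sets, 0.586% had reloaded arrays wholly below the suspended ones.

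Against the untreated controls, which also served the suspension comparison, the reloaded arrays had 0 of 15 probe sets called, with 0.337% of all called in either direction. An unadjusted p under 0.05 was reached by 8 of the 15, against 7.04% of all, and the median difference was 0.39, against -0.01. Differences were above 0 for 13 of the 15, against 44.4% of all. Fasn differed by 1.20 ± 0.32 (log2 ± SE, 95% interval 0.53 to 1.88; adjusted p = 0.181, limma), and reloaded replicate 15 (7.28) lay below control replicates 1 and 2. Tkt 1439443_x_at read 7.16, 7.01, 7.58, 7.15 and 7.45 in the reloaded arrays, all above the controls, and differed by 0.69 ± 0.16 (adjusted p = 0.0914, limma). It and Me1 1416632_at were the 2 of 15 probe sets without overlap there, against 1.04% of all. Mean log2 Fasn signal in the calf experiment was highest in suspension (8.57 ± 0.43, SD, n = 5), next in reloaded (8.15 ± 0.60) and lowest in control arrays (6.94 ± 0.83). Neither step next to the reloaded group passed the test, while the step from control to suspension did. Thrsp 1424737_at had the same order of means, 8.24 ± 0.40, 7.85 ± 0.46 and 7.35 ± 0.49, with no step past the test. For Tkt 1439443_x_at the means were 7.55 ± 0.34, 7.27 ± 0.23 and 6.58 ± 0.35.

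The difference between the flight effect and the suspension effect was tested over all 23 arrays. No member passed this test: 0 of 15 were called in limma, against 1.58% of all probe sets, and 0 passed an unadjusted p under 0.05, against 12.8% of all. The flight effect was the larger in 9 of 15, against 47.6% of all. The estimates were wide, so equal effects were not shown. For Fasn, the flight effect minus the suspension effect was -0.50 ± 0.44 (log2 ± SE, 95% interval -1.39 to 0.40; adjusted p = 0.682). For Thrsp 1424737_at it was 0.48 ± 0.32 (-0.18 to 1.13) and for Tkt 1439443_x_at 0.02 ± 0.23 (-0.46 to 0.50). For the second Scd1 probe set it was -0.82 ± 0.42 (-1.69 to 0.06; adjusted p = 0.43). Against the effect of suspension with reloading, 0 of 15 were called, against 3.27% of all, and 4 passed an unadjusted p under 0.05, against 14.5% of all. The flight effect was the larger in 11 of 15, against 49.2% of all. Those 4 were both Thrsp probe sets (0.86 ± 0.32 and 0.63 ± 0.23), Srebf1 (0.32 ± 0.14) and Tkt 1451015_at (0.45 ± 0.19), each larger in flight. Flight muscle and calf muscle also differ in dissected tissue, so the tissue and the kind of unloading cannot be told apart.

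Within groups, the same arrays tended to be high or low for several members at once. Spaceflight replicate 8 was the highest of its group in 11 of the 15 probe sets, and AEM replicate 2 in 9. In the calf experiment, control replicate 2 was highest in 10 and control replicate 21 lowest in 9, reloaded replicate 16 was highest in 8 and reloaded replicate 15 lowest in 10, and suspension replicate 8 was highest in 7 and suspension replicate 9 lowest in 6. Suspension replicate 8 was lowest of its group for both Me1 probe sets. Members share an array, so these counts are no independent observations. Across the 15 calf arrays, which share groups and array scaling, the Pearson correlation with Fasn was 0.95 and 0.92 for the Tkt probe sets, 0.94 and 0.87 for Thrsp, 0.87 for both of Scd1, 0.82 for Elovl6, 0.85, 0.61 and 0.81 for Acly, 0.61 for Srebf1, 0.50 for Acaca, and 0.61 and 0.27 for Me1. Across the 8 flight arrays it was 0.98, 0.90 and 0.92 for Acly, 0.96 and 0.95 for Thrsp, 0.90 and 0.96 for Tkt, 0.95 for Elovl6, 0.81 for Srebf1, 0.55 and 0.06 for Scd1, 0.40 for both of Me1 and 0.06 for Acaca. Group means were not removed in either experiment, so these correlations partly restate the differences between groups. The correlations of Scd1 with Fasn were higher in calf muscle than in gastrocnemius, a description with no test.

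**Figure D3:**
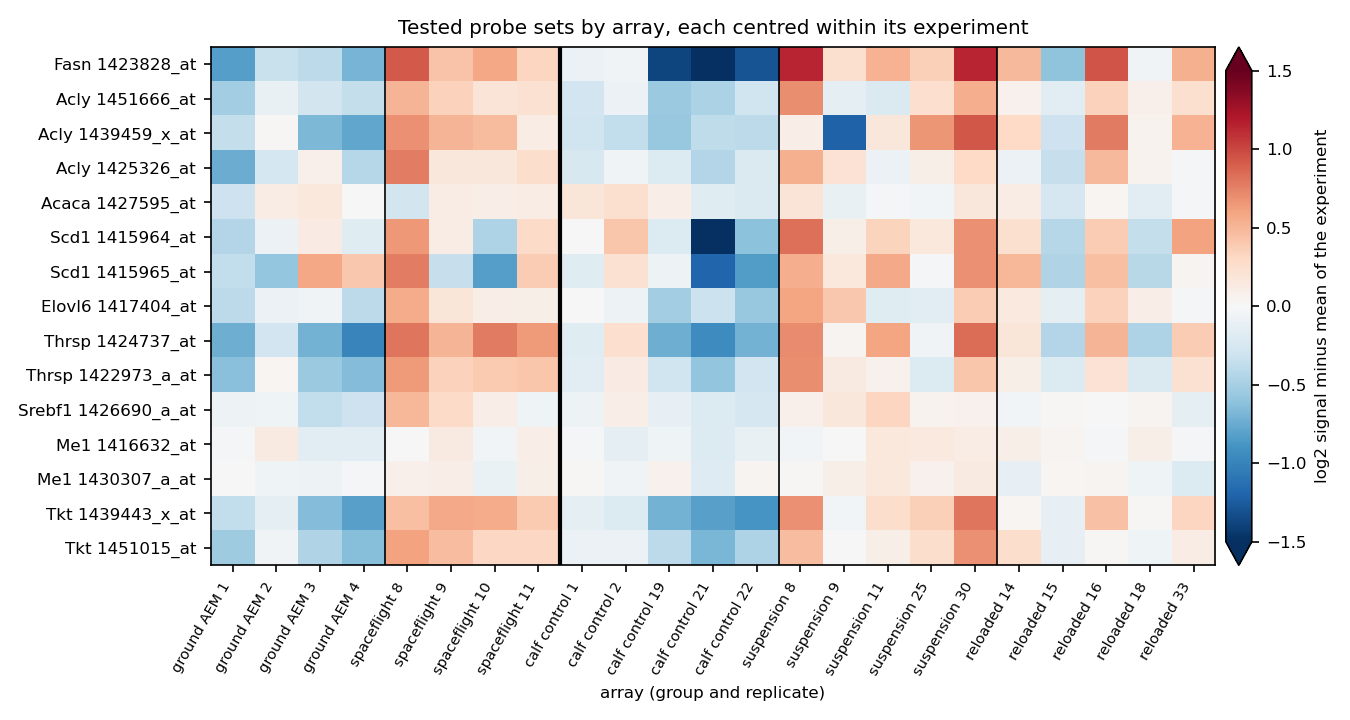
Log2 signal of the 15 tested probe sets (rows) on each of the 23 arrays (columns, by group), shown as colour after subtracting the probe set's mean over its own experiment; the colour scale ends at ±1.5. The spaceflight columns are above the experiment mean for Fasn, Acly, Thrsp and Tkt, control replicates 19, 21 and 22 are below control replicates 1 and 2 for Fasn, Thrsp and Tkt, while the 5 controls lie closer together for Acly.

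Among genes that are no members, taken at their highest-mean tested probe set, those whose profile was most like Fasn over the 15 calf arrays were Cdo1, the cysteine dioxygenase (r = 0.93), Retn, the fat cell hormone resistin (r = 0.86), Cyp2e1 (r = 0.83), Cdkn2c (r = 0.82) and Adipoq, the fat cell hormone adiponectin (r = 0.82), of 9125 genes compared. Over the 8 flight arrays the list was another one: Selenbp1, Gpalpp1, Txnip, Eif4ebp1 and Tapbp, with r between 0.962 and 0.985. Both lists keep the differences between group means, so a gene can rank high through these alone.

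The other genes of the pathway were read from fixed lists, at 1 probe set per gene. Of 22 tested genes of fatty acid synthesis other than the members, such as Acacb, Scd2 and further elongases and reductases, 0 were called in flight and 0 in suspension by limma, where 3.12% and 0.12% of all genes were called higher and 2.39% and 0.219% lower. At an unadjusted p under 0.05, 4 passed in flight and 3 in suspension, against 18.8% and 8.32% of all genes. Their median difference was 0.02 in flight and 0.04 in suspension, against -0.01 and 0.00 over all genes. Acacb, the carboxylase isoform whose malonyl-CoA restrains fatty acid oxidation in muscle, differed by 0.01 in flight. Scd2, a desaturase related to Scd1, differed by 0.45 in flight and 0.87 in suspension without passing the test; it was picked after its values were seen.

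The list of other NADPH supply also holds genes whose own step makes no NADPH, such as Taldo1 and Nadk. Of its 16 tested genes, 2 rose in flight at their highest-mean probe set, against 3.12% of all genes called higher. At an unadjusted p under 0.05, 5 passed in flight and 3 in suspension, against 18.8% and 8.32% of all genes. H6pd, the hexose-6-phosphate dehydrogenase of the endoplasmic reticulum, rose by 0.70 ± 0.08 (log2 ± SE; adjusted p = 0.000471, limma). Aldh1l1, which releases NADPH from formyl-folate, rose by 0.81 ± 0.08, although its second probe set, above the filter level on no array, differed by -0.11. Another 2 genes rose on a probe set of lower mean. Pgd, a later oxidative pentose phosphate step, rose by 0.33 ± 0.08 on its tested probe set of lowest mean (adjusted p = 0.0352, limma), while its highest-mean probe set differed by 0.38 ± 0.11 (adjusted p = 0.0582) and the remaining 2 were not called. Idh1, the cytosolic NADP-dependent isocitrate dehydrogenase, rose by 0.59 ± 0.10 on its second probe set (adjusted p = 0.00362, limma), and its highest-mean probe set differed by 0.34 ± 0.10 (adjusted p = 0.0519). In suspension 1 of the 16 changed: Idh2, the mitochondrial NADP-dependent isocitrate dehydrogenase, fell by 0.62 (SE 0.11; adjusted p = 0.019, limma). Idh2 was also lower in reloaded than in control arrays (-0.63 ± 0.11, adjusted p = 0.0154), a comparison that shares those controls and in which 0.0547% of all genes were called lower.

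Of 23 tested regulators, 3 changed in flight, 2 higher and 1 lower, against 3.12% of all genes called higher and 2.39% called lower. In suspension 0 were called. At an unadjusted p under 0.05, 5 passed in flight and 3 in suspension, against 18.8% and 8.32% of all genes. The list's median difference in flight was 0.00, against -0.01 over all genes. In flight, Mid1ip1, the Spot 14-related partner of acetyl-CoA carboxylase, rose by 0.52 ± 0.11 (adjusted p = 0.0126, limma), and Cebpa, a transcription factor of fat and liver cells, by 0.84 ± 0.08 (adjusted p = 0.000179, limma). Nfya, a subunit of NF-Y, fell by 0.34 (SE 0.09; adjusted p = 0.0357, limma), while another probe set of the gene differed by 0.17 without a call. Mlxipl, the carbohydrate-responsive factor ChREBP, differed by -0.08 in flight and by -0.31 ± 0.08 in suspension, not called in either. Of 16 tested genes of cholesterol synthesis and uptake, 0 were called in flight or suspension and 0 passed an unadjusted p under 0.05 in either, with medians of 0.05 and 0.09. Insig1, which retains SREBP in the endoplasmic reticulum, is not analysed here. Of 14 tested genes of triglyceride assembly, 1 rose in flight, the lipid droplet gene Cidec (1.67 ± 0.17), which passed the filter on 8 arrays, and 0 were called in suspension, where 3 passed an unadjusted p under 0.05. In flight 3 passed that level as well, against 18.8% of all genes there and 8.32% in suspension.

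**Figure D4:**
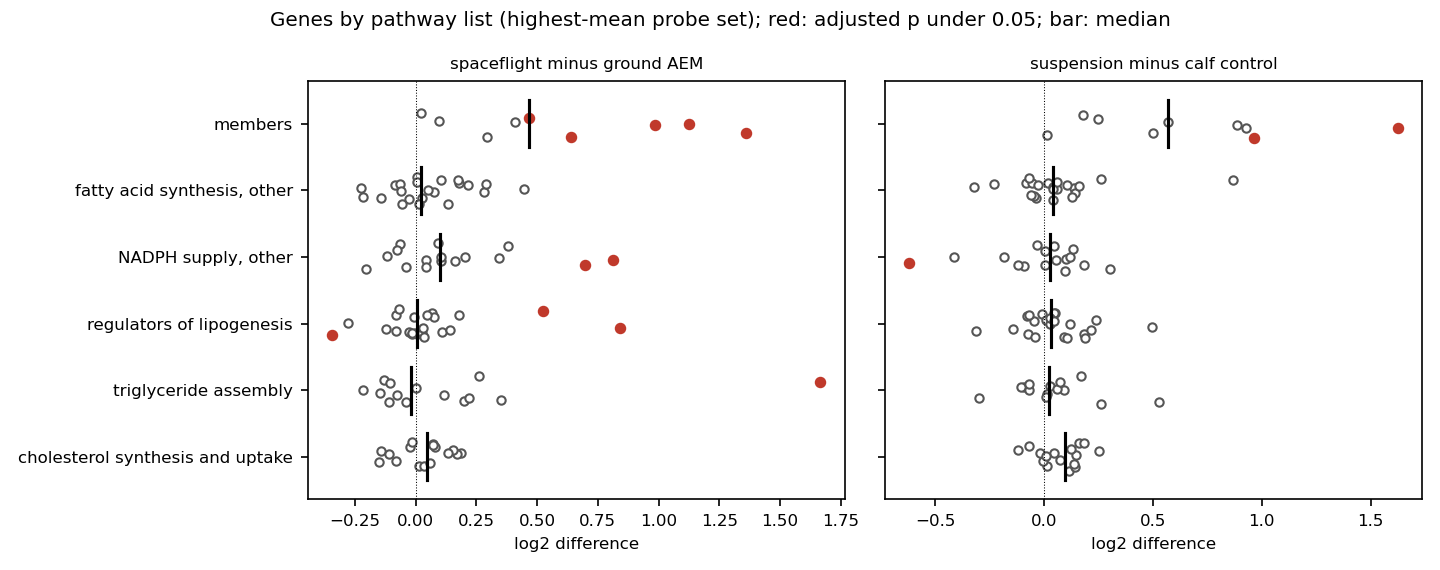
Log2 difference (x axis) of each tested gene by list (y axis), in 1 panel for flight and 1 for suspension, at the gene's highest-mean probe set, with a bar at the list's median and called genes in red. The members' median lies to the right of the medians of the other 5 pathway lists shown in both panels. Cell marker lists are not drawn, and the adipocyte list had a median of 0.63 in flight and 0.18 in suspension. H6pd, Aldh1l1, Cebpa, Mid1ip1 and Cidec are the red points above 0 outside the members in flight.

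Markers of fat cells moved beside the members. Of 8 tested adipocyte markers, of 12 listed and 9 on the array, 5 rose in flight, against 3.12% of all genes called higher. These were Adipoq (1.44 ± 0.13 log2, SE), Cidec, Retn (1.05 ± 0.13), Lipe (0.63 ± 0.11) and Lep (0.62 ± 0.14). Car3, Lpl and Fabp4, which muscle fibres or their vessels also express and which make up most of the summed signal, were not called. In flight 6 of the 8 passed an unadjusted p under 0.05, Fabp4 among them, against 18.8% of all genes. The summed linear signal of the 9 markers was 14265 to 16049 in spaceflight, 14206 to 14898 in AEM, 13367 to 16922 in control, 15541 to 16115 in suspension and 14891 to 16287 in reloaded arrays. The sum of Adipoq, Retn and Lep alone was 1225 to 1670 in spaceflight and 517 to 680 in AEM arrays, without overlap. All 3 are among the 5 markers called higher in flight, so that separation restates their calls. In the calf experiment the same sum was 486 to 947 in control, 984 to 1521 in suspension and 627 to 1338 in reloaded arrays. Control and suspension did not overlap there, while their sums over all 9 markers did. Lep, 1 of the 3, differed by only 0.12 in suspension (adjusted p = 0.814, limma). In suspension 0 of the 8 were called in limma, with Adipoq at 0.86 ± 0.22 (adjusted p = 0.139). There 4 of the 8 passed an unadjusted p under 0.05, against 8.32% of all genes. The part of fat cells in the differences of Fasn, Thrsp, Tkt, Acly and Elovl6 was not tested.

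Other cell markers also moved. Of all genes, 3.12% were called higher and 2.39% lower in flight, and 0.12% and 0.219% in suspension. An unadjusted p under 0.05 was reached by 18.8% of all genes in flight and 8.32% in suspension. Of 8 tested Schwann cell and myelin markers, Mbp (1.87 ± 0.38) and Cnp (0.66 ± 0.14) rose in suspension at their highest-mean probe sets. An unadjusted p under 0.05 was reached there by 7 of the 8, against 8.32% of all genes, and the median difference was 0.49. Further Mbp probe sets differed there by 1.69, 1.81, 2.10 and 1.29, each called, and by 0.93, 0.08 and 0.07, not called. Further Cnp probe sets differed by 0.50, called, and by 0.24, not called. In flight 0 of the 8 markers were called and 0 passed an unadjusted p under 0.05. Their summed linear signal was 3457 to 5428 in suspension and 1796 to 2259 in control arrays, against 2151 to 3331 in spaceflight and 1683 to 3004 in AEM arrays. The control and suspension sums did not overlap, and the part of nerve in the Fasn and Tkt differences was not tested. Of 4 tested fibroblast markers, the collagens Col1a1 (-0.99 ± 0.24, adjusted p = 0.0263, limma) and Col3a1 (-0.61 ± 0.16, adjusted p = 0.0386, limma) fell in flight, and 0 were called in suspension, where the same 2 passed an unadjusted p under 0.05. The fibroblast sum was 3277 to 3836 in spaceflight and 3519 to 5104 in AEM arrays. Of 6 endothelial markers, the receptor gene Kdr fell in flight (-0.32 ± 0.08). Of 4 brown fat markers, Ppargc1a, a coactivator that muscle also expresses, fell in flight (-1.23 ± 0.14) and rose in reloading (1.29 ± 0.28). Of 7 slow fibre markers, the myosin light chain Myl2 fell in flight (-0.42 ± 0.10) and Myl3 in suspension (-0.47 ± 0.09), where 6 of the 7 passed an unadjusted p under 0.05 and the median was -0.31. Their summed linear signal was 21163 to 26517 in suspension and 29306 to 32494 in control arrays, without overlap, and 14479 to 21666 in spaceflight and 17294 to 20615 in AEM arrays. The macrophage, skin and liver lists gave 0 limma calls in flight and suspension, with 1, 0 and 0 at an unadjusted p under 0.05 in each. Their part in the members' differences was not tested. The 10 tested markers common to skeletal muscle fibres gave 0 limma calls in flight, suspension, reloading and reloaded against control, with 1, 1, 1 and 2 at an unadjusted p under 0.05. No marker read 0 on any array, since the lowest value of any probe set that is not a control was log2 2.49. A reading above 0 is therefore no sign of expression. Over the 5 reloaded arrays, replicates 14, 15, 16, 18 and 33, Mbp read 8.82, 8.39, 10.40, 11.30 and 10.58 and Fasn 8.37, 7.28, 8.83, 7.83 and 8.42; replicate 15 was lowest in both.

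**Figure D5:**
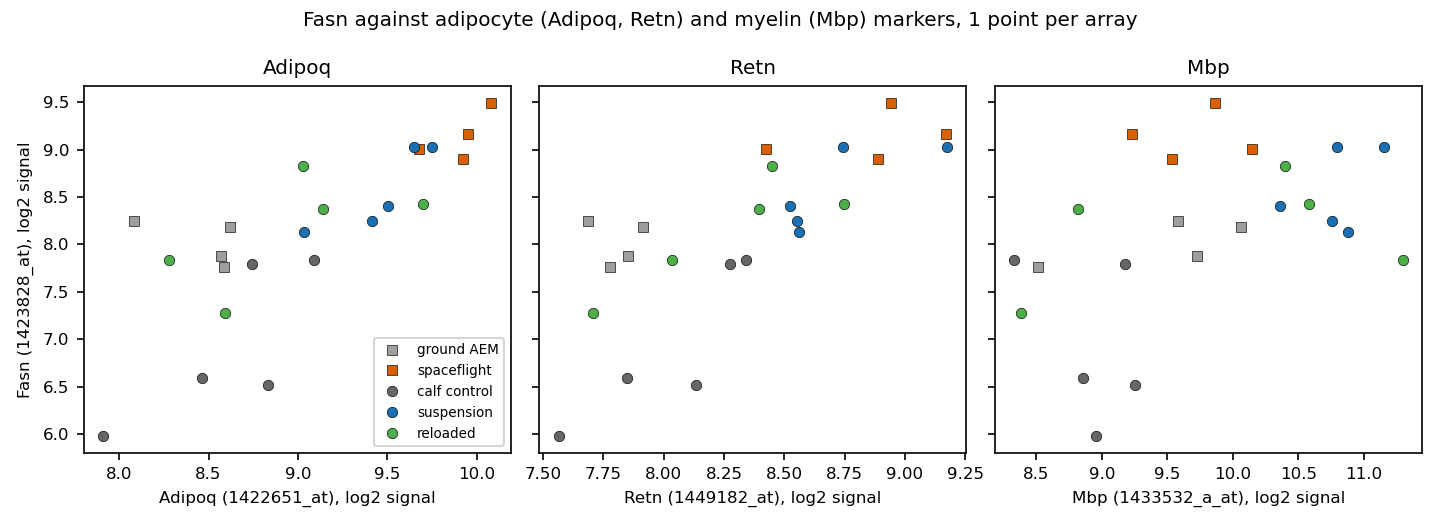
Fasn log2 signal (y axis) against that of Adipoq, Retn and Mbp (x axes, 1 panel each) on every array; squares are flight arrays and circles calf arrays, coloured by group. Spaceflight arrays have Adipoq at 9.68 to 10.08, where suspension replicate 8 (9.75) and reloaded replicate 33 (9.70) also lie, and Fasn at 8.91 to 9.50. Mbp spans 8.39 to 11.30 in reloaded arrays at Fasn values of 7.28 to 8.83.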

How the data were processed

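Each sample was hybridised to 1 Affymetrix array. The deposited table holds log2 values. RMA and MAS5 are named, per the submitters' processing notes, with neither a version nor a role, and whether both experiments were scaled jointly is not stated there. The log2 values were used as deposited, without further normalization. Control probe sets (64) were left out. The filter (log2 above 5.83, the 40th percentile, on at least 4 of 23 arrays) left out 7777 of 22626 probe sets. Differences were fitted per probe set with limma 3.58.1 (lmFit, eBayes) in R 4.3.3, on the 8 flight arrays, on the 15 calf arrays with 1 shared spread, and on all 23 for differences between effects; scripts were tested on simulated data. Folds are 2 to the power of the log2 difference. The number of arrays limits the precision: the median SE was 0.0932 in flight and 0.091 in suspension. No scan date or batch is given. All members are named, and of each other pathway list up to 4 called genes, plus Acacb, Pgd, Mlxipl and Insig1; Scd2, Idh1 and called cell markers were named after their values were seen, and some listed genes are not reported here. The genes most like Fasn are the 5 of highest Pearson r. Gene names come from the platform table, which can be old. Members and lists were chosen with earlier results of these data known. Alternatives covered normalization, filter, fit, arrays left out, probe set summary and exchanged flight labels.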

Additional observations from a re-analysis of the deposited data

Results flagged for a closer look

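Of 75 groups of member values, 4 had 1 array far from the others, where chance alone flags about 1 in 20 groups. Spaceflight replicate 8 was high for Acly 1425326_at, at 8.48 against 7.98 for the nearest other array, and low for Acaca, at 5.19 against 5.56. AEM replicate 2 was high for Thrsp 1422973_a_at, at 7.75 against 7.16. Spaceflight replicate 10 was low for Me1 1430307_a_at, at 10.45 against 10.63.

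Several genes of the pathway and cell marker lists had a flight effect that differed from a calf effect in the limma test of the difference itself. Against suspension, the log2 difference of effects was 0.52 for H6pd (adjusted p = 0.0311), 0.68 for Aldh1l1 (adjusted p = 0.00112) and 1.14 for Cidec (adjusted p = 0.011). Against suspension with reloading it was 0.57 for Mlycd, the malonyl-CoA decarboxylase (adjusted p = 0.0348), 0.70 for H6pd (adjusted p = 0.00138), 0.80 for Aldh1l1 (adjusted p = 9.76e-05), 1.38 for Cidec (adjusted p = 0.00104), 1.10 for Adipoq (adjusted p = 0.0451), 0.75 for Lep (adjusted p = 0.0207), 0.58 for Lipe (adjusted p = 0.0351) and, in the other direction, -2.48 for Ppargc1a (adjusted p = 0.000206).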

How the results depend on the processing

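The flight comparison called 7 to 9 member probe sets with 1 array left out, 5 with 1 probe set per gene and 4 with probe sets averaged per gene, where the last 2 have fewer units to call. The suspension comparison called 0 to 4 with 1 array left out, 1 with averaged probe sets, 0 at an adjusted p under 0.01, and 1 without suspension replicates 8 and 9, an alternative chosen after seeing the data. None of its calls was left without control replicate 22; 1 was left without any one of control replicates 19 and 21 and suspension replicates 8 and 30. Reloaded against control called 1 with array weights and 1 with only the 2 groups in the fit, both times Tkt 1439443_x_at (limma adjusted p = 0.0245 and 0.0398). With the flight labels exchanged, 10 of the 15 member probe sets were called in each of the differences of effects, flight against suspension and flight against reloaded, since a difference then becomes a sum; the latter also called 1 with array weights (Thrsp 1422973_a_at, adjusted p = 0.0486) and 0 to 1 with 1 array left out (1 without AEM replicate 2). The Fasn call in suspension was lost with trend and robust estimation (adjusted p = 0.16) and array weights (0.0502), and over all alternatives the cause was not tested.

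Some signs turned, in values of which none was called. With array weights, Acaca was -0.0207 in flight, -0.0024 in suspension and -0.0175 in flight minus suspension; Acly 1439459_x_at was -0.14 and Elovl6 0.0563 in reloading, Elovl6 was 0.14 in flight minus suspension, and Fasn 0.018 in flight minus reloaded. Quantile normalization gave Acaca -0.0117 in suspension, and averaged probe sets gave Me1 0.0364 in flight minus reloaded. Without suspension replicates 8 and 9, reloading was -0.32 for Acly 1439459_x_at and 0.0775 for Elovl6, and flight minus suspension was -0.094, 0.16 and -0.0394 for Acly 1439459_x_at, Elovl6 and Tkt 1439443_x_at. With 1 array left out, the ranges that crossed 0 were as follows. In flight they were -0.0786 to 0.12 for Acaca and -0.28 to 0.26 for Scd1 1415965_at, in suspension -0.0471 to 0.0685 for Acaca, and in reloading -0.20 to 0.34 for Acly 1439459_x_at. In flight minus suspension they were -0.0423 to 0.19 for Acly 1451666_at, -0.092 to 0.10 for Acaca, -0.14 to 0.0603 for Elovl6, -0.0638 to 0.0064 for Me1 1430307_a_at and -0.0914 to 0.14 for Tkt 1439443_x_at. In flight minus reloaded they were -0.30 to 0.16 for Fasn, -0.53 to 0.11 for Scd1 1415964_at, -0.0246 to 0.15 for Elovl6 and -0.0803 to 0.017 for Me1 1416632_at. No paired analysis was possible because the groups compared within an experiment share fewer than 2 replicate numbers.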
